A study of Mus musculus with 9 samples.

Results

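The 9 genes described here, of 21887 protein-coding genes in the annotation, are Cd34, Slamf1, Cd48, Procr, Fgd5, Ctnnal1, Ly6a, Ly6e and Ptprc. They were chosen as genes whose products or reporters mark blood stem cells, and each was taken as its annotated span plus 20 kb on either side. Fgd5 and Ctnnal1 encode proteins inside the cell that serve as markers through reporter alleles, so the set is 7 surface genes and 2 reporter genes.

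The data are CUT&Tag peak lists, in which a tethered transposase tags DNA beside an antibody-bound protein. Control mice were Dekfl/fl without Cre (fl), and the mice called cKO were Dekfl/fl,Tie2-Cre; both were C57BL/6 and 3 months old, and all cells came from bone marrow. The chromatin protein DEK was profiled in 3 fl libraries of haematopoietic stem cells (HSC, sorted as Lin-Sca-1+c-Kit+CD48-CD150+, about 20000 cells), and the acetylation mark H3K9ac in 1 fl and 1 cKO library of HSC. H3K27ac, an acetylation mark of active promoters and enhancers, and H3K4me3, a promoter mark, were each profiled in 1 fl and 1 cKO library of the wider gate LSK (Lin-Sca-1+c-Kit+, about 50000 cells).

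Tie2 drives Cre in endothelial cells and in the blood lineage that arises from them, so the deletion is not limited to stem cells. How many animals gave each library is not stated, and no library with a control antibody was analysed here. With 1 library per mark and genotype, no difference between fl and cKO has a replicate check and none was tested. The lists hold no read counts, so the depth of each library is unknown, and lengths differed: 10494 peaks in fl and 16331 in cKO for H3K27ac, 10514 and 10159 for H3K4me3, 2172 and 3431 for H3K9ac, and 2054, 2111 and 6146 for DEK replicates 1 to 3. Row names in the list of DEK replicate 3 hold the word Flag, so the antibody of that library is less certain than its label. The peak lists do not read the deletion itself: an H3K4me3 peak lay at a start of Dek in both genotypes, and an H3K27ac peak there in cKO only.

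Blood stem cells are recognised by combinations of surface proteins, none of which is specific alone. Sca-1, encoded by Ly6a, is kept on stem and multipotent progenitor cells, while the SLAM family proteins CD150 (Slamf1) and CD48 (Cd48) split the most primitive cells from their progeny. Sca-1 was part of both sorts, and CD48 and CD150 were part of the HSC sort only, so nothing about Ly6a, Slamf1 or Cd48 is read as a difference between HSC and LSK. In LSK, a change in the share of cells that carry a mark and a change of the mark within each cell cannot be told apart. H3K4me3 marks the starts of genes that are active or ready to be, and acetylation of histone H3 accompanies active starts and enhancers.

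Across the 9 lists, 36 peaks fell in the spans plus 20 kb of the 9 genes, of 63412 in all. H3K4me3 gave 10 in fl and 10 in cKO, H3K27ac 4 and 7, H3K9ac 1 and 0, and the DEK libraries 0, 2 and 2. Starts were the main place of H3K4me3: 7 of 9 genes carried a peak within 1 kb of a start in fl, against 45.7% of all protein-coding genes, and 5 of 9 in cKO, against 44.6%. H3K27ac lay at the start of 1 gene in fl (Ly6e), against 22.6% of all genes, and of 3 in cKO (Cd34, Ctnnal1, Ly6e), against 43.9%. Slamf1 and Ly6a had no histone peak in their windows in any of the 6 histone lists, which was true of 24.9% of all genes.

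**Figure D1:**
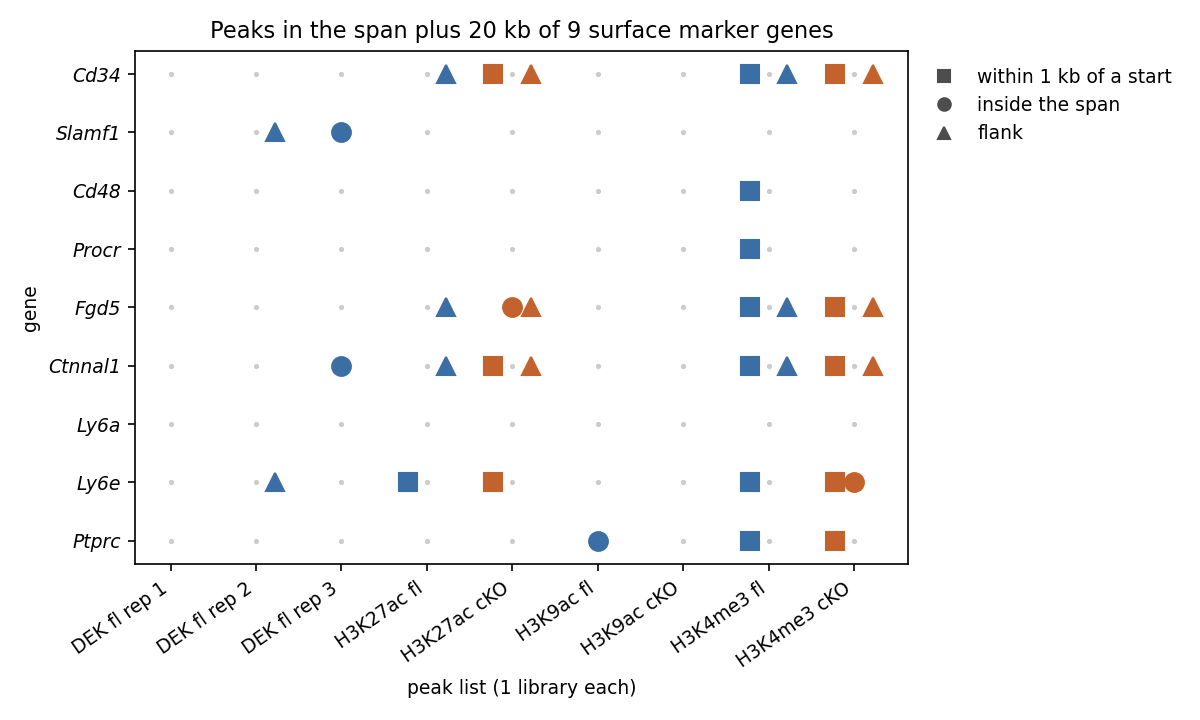
Presence of peaks in the span plus 20 kb of each of the 9 genes (rows) in each of the 9 peak lists (columns, 1 library each), with squares for peaks within 1 kb of a start, circles for peaks inside the span and triangles for flanks, fl in blue and cKO in orange. Ly6a has no symbol in any list, Slamf1 has DEK symbols only, and Cd48 and Procr have a symbol in the fl H3K4me3 list alone.

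Sequences upstream of 5 starts are shown because these starts differed between genotypes or lacked every histone peak. Cd34 and Ctnnal1 had H3K27ac at the start in cKO only, Cd48 and Procr had H3K4me3 there in fl only, and Slamf1 had neither mark. Each run is the 250 bases before the annotated start, read on the gene's own strand, 5′ to 3′, from RefSeq on GRCm38.p6, with CpG pairs in capitals.
Cd34, chr1:194938571-194938820, plus strand: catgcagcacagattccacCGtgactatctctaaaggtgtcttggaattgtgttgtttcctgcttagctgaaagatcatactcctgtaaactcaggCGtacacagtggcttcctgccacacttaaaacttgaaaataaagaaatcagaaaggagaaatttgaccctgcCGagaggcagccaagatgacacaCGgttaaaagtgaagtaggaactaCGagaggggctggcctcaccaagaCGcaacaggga
Ctnnal1, chr4:56865212-56865461, minus strand: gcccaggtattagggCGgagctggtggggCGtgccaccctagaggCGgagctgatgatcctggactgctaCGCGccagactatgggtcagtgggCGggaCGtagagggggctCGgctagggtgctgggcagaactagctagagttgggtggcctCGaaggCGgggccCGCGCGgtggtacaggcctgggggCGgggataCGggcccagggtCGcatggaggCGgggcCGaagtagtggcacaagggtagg
Cd48, chr1:171681742-171681991, plus strand: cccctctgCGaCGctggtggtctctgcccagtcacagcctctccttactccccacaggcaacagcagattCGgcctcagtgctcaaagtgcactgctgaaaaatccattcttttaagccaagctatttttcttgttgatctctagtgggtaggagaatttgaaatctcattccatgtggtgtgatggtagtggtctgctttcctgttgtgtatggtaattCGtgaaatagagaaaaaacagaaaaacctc
Procr, chr2:155750967-155751216, plus strand: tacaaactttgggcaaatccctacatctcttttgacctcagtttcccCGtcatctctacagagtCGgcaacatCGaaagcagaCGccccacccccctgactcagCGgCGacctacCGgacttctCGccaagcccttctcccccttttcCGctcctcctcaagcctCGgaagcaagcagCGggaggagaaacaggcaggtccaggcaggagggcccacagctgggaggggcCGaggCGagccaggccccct
Slamf1, chr1:171766882-171767131, plus strand: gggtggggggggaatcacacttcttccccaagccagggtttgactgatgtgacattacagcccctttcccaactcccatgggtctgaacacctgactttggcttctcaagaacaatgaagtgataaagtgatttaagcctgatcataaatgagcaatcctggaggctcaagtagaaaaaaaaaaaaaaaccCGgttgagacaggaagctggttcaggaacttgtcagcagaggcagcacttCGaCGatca
Ctnnal1 holds 18 CpG in these 250 bases and Procr 13, while Cd34 holds 6, Cd48 4 and Slamf1 3. Both pairs of starts that differed between genotypes thus hold one with more CpG (Ctnnal1, Procr) and one with fewer (Cd34, Cd48). Positions below are counted in bases from the annotated start, which is 0, with upstream negative.

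Cd34 encodes the sialomucin CD34, which is low or absent on the most quiescent mouse stem cells and present on progenitors; its span is chr1:194938821-194961292. Its fl H3K4me3 peak was 1585 bp wide, wider than 95.0% of its list, and ran from position -29 to 1555 at a deposited fold enrichment of 7.93 and a −log10 q of 37.8. In cKO 2 narrower peaks of 469 and 763 bp lay in the same stretch, with folds of 6.42 and 8.44 and −log10 q of 17.4 and 28.4. They left a gap of 351 bp, and 75.9% of the fl peak was covered in both genotypes. The start was therefore marked in both genotypes, as 1 broad block in fl and as 2 blocks in cKO. Fold and −log10 q are the authors' own values for each peak and are read only within a list.

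The cKO H3K27ac list held a peak of 350 bp at the Cd34 start (positions -6 to 343, fold 8.43, −log10 q 10.5), inside the H3K4me3 stretch. The fl list held none there. This peak stood at rank 12366 of 16331, 75.7% of the way down from the strongest, and 67.2% of the cKO peaks in the same decile of that list had no fl partner. The other peaks in the Cd34 window lay downstream at an end of Gm16897, a neighbouring gene, where both marks were present in both genotypes.

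Ctnnal1 encodes alpha-catulin, a protein related to alpha-catenin whose reporter allele marks stem cells; its span is chr4:56810935-56865375 on the minus strand. H3K4me3 covered its start in both genotypes, with a peak of 895 bp in fl (positions -194 to 700, −log10 q 17.8) and of 1083 bp in cKO (positions -92 to 990, −log10 q 12.7). H3K27ac was listed there in cKO only, as a peak of 825 bp from position -239 to 585 (fold 9.86, −log10 q 18.6). It covered 289 of the 300 promoter bases, so nearly all of the upstream run printed above. It stood 49.2% of the way down its list, the strongest of the 3 H3K27ac peaks at these genes that had no fl partner, and 41.7% of cKO peaks in its decile had none either.

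Fgd5 encodes an exchange factor for small GTPases and is used as a reporter of stem cells, and it is also active in endothelial cells; its span is chr6:91978827-92076005. H3K4me3 at its start was near the bottom of both lists, at 661 bp and a −log10 q of 10.5 in fl (81.4% of the way down) and at 412 bp and 4.85 in cKO (95.8%). No H3K27ac peak was listed at the start in either genotype. The cKO H3K27ac list held a peak of 458 bp inside the gene, with its summit at position 46883 (fold 9.10, −log10 q 12.7), where no other list had a peak. In its decile 61.1% of cKO peaks had no fl partner. The strongest H3K4me3 peak of each genotype in the Fgd5 window lay at the start of the neighbour Nr2c2, a nuclear receptor gene (−log10 q 61.8 for fl, 54.5 for cKO). H3K27ac lay there in both genotypes too (−log10 q 6.66 for fl, 26.4 for cKO).

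Counted over regions, that is, peaks of the 2 genotypes joined wherever they overlapped by at least 1 bp, H3K27ac at the 9 genes gave 4 shared, 3 cKO-only and 0 fl-only regions. Over the genome the shares were 51.5% shared, 40.9% cKO only and 7.62% fl only. A cKO-only H3K27ac region in the window was found at 3 of 9 genes (Cd34, Fgd5, Ctnnal1), against 39.6% of all genes. At a start, H3K27ac was in cKO only at 2 of 9 genes against 21.7% of all genes, in both genotypes at 1 against 22.3%, and in fl only at 0 against 0.361%. The excess of cKO over fl at these genes was thus close to that of the whole list, which was longer in cKO. With both H3K27ac lists held to the strongest 10494 peaks, that is, the upper 64.3% of the cKO list, only the peak at the Ctnnal1 start remained as a cKO-only region.

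**Figure D2:**
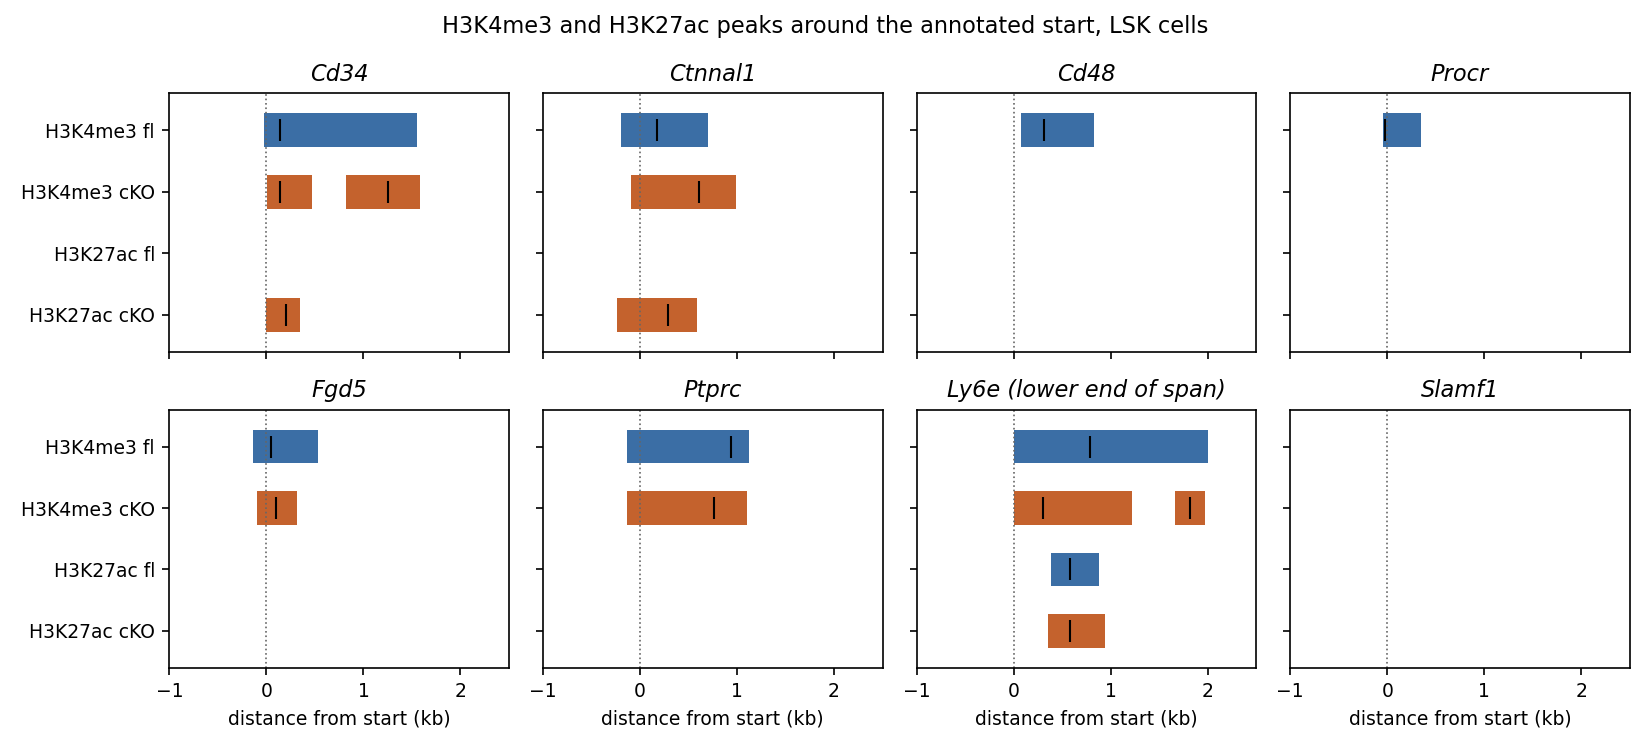
H3K4me3 and H3K27ac peaks (bars, with the summit as a black tick) around the annotated start of 8 genes in fl (blue) and cKO (orange) LSK cells; the horizontal axis is the distance from the start in kb, downstream to the right, and for Ly6e from the lower end of its span. The broad fl H3K4me3 bar of Cd34 (1585 bp) is replaced by 2 bars in cKO, the panels of Cd48 and Procr hold an fl bar alone, and that of Slamf1 is empty.

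Cd48 encodes a GPI-anchored SLAM family protein absent from the most primitive stem cells and present on most other LSK cells; its span is chr1:171681245-171705258. The fl H3K4me3 list held a peak of 750 bp just downstream of the start, from position 76 to 825 (fold 9.43, −log10 q 16.4). The cKO list held none in the window, and its nearest H3K4me3 peak lay 177 kb away at Alyref2. The fl peak stood at rank 7009 of 10514, 66.7% of the way down. Of the 1049 fl peaks in that decile only 28, or 2.67%, had no cKO partner, so the absence in cKO was uncommon for a peak of that rank.

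Procr encodes EPCR (CD201), the receptor for protein C, found on stem cells and endothelium; its span is chr2:155751125-155755478. Its H3K4me3 peak, also in fl only, was 390 bp wide and ran from position -39 to 350 (fold 4.41, −log10 q 3.02). It stood at rank 10388 of 10514, and 60.5% of the fl peaks in the weakest decile had no cKO partner. The Procr peak was therefore at the limit of its list, unlike that of Cd48. No acetylation peak lay within 20 kb of Procr, and the nearest H3K27ac peaks, in fl and in cKO, were 21.7 and 21.6 kb away at Edem2, a gene for a protein of glycoprotein quality control.

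H3K4me3 at a start was present in fl only at these 2 of 9 genes, against 2.76% of all genes. It was present in cKO only at 0 of 9, against 1.62%, and in both genotypes at 5 of 9, against 42.9%. Over regions H3K4me3 gave 8 shared, 2 fl-only and 0 cKO-only, beside genome shares of 84.2%, 9.65% and 6.15%. With both H3K4me3 lists held to 10159 peaks, 1 fl-only region was left, that of Cd48. With peaks of a −log10 q of at least 5 alone, 2 were left again, but at Cd48 and at the Fgd5 start, where the cKO peak lies under that limit. The fl-only H3K4me3 peak of Cd48 is therefore the one that did not depend on these 2 choices.

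Slamf1 encodes CD150, the receptor by which SLAM sorts select stem cells; its span is chr1:171767131-171801184. No H3K4me3, H3K27ac or H3K9ac peak lay in its window in either genotype. The nearest H3K4me3 peak was 84.3 kb away in fl (that of Cd48) and 225 kb away in cKO (at Vangl2). In fl, Slamf1 thus differed from Cd48, its relative on the same chromosome, in having no listed histone mark. In cKO neither gene had a histone peak in its window. The H3K9ac libraries came from HSC sorted as CD150+, while those of H3K4me3 and H3K27ac came from LSK, which were not sorted on CD150.

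Ly6a and Ly6e are neighbours on chromosome 15 and both encode small GPI-anchored proteins of the Ly6 family; Ly6a encodes Sca-1 itself, the antigen of both sorts. At Ly6e (chr15:74955025-74959904) the fl H3K4me3 peak was 1996 bp wide, wider than 98.6% of its list, with a −log10 q of 25.9. In cKO it was a peak of 1215 bp and a separate one of 310 bp, 52.6% and 84.7% of the way down the list, with a gap of 439 bp. Ly6e was also the only one of the 9 genes with H3K27ac at a start in both genotypes, at 490 bp and a −log10 q of 15.2 in fl and 584 bp and 15.5 in cKO, with summits 3 bp apart. As at Cd34, the mark was broad in fl and in 2 pieces in cKO, so the count of peaks rose without any new place being marked. How often wide fl peaks are in pieces in cKO over the whole list was not counted. Over the whole lists the median width was 750 bp in cKO against 787.5 bp in fl. The median −log10 q was 20.0 against 24.1, and with depth unknown this is not read as a weaker mark.

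Ly6a (chr15:74994877-74998031) had no peak of any list within 20 kb, which was so for 1 of the 9 genes and for 21.3% of all genes. The nearest H3K4me3 peaks were those of Ly6e, 37.9 kb away in fl and in cKO, and the nearest H3K27ac peaks 39.0 and 38.9 kb away. A gene whose protein every sorted cell carried was therefore without a listed active mark in these libraries.

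Ptprc encodes CD45, a receptor tyrosine phosphatase of all nucleated blood cells, and serves here as the pan-blood marker; its span is chr1:138062859-138175756 on the minus strand. H3K4me3 lay at its start in both genotypes with nearly the same extent, 1251 bp in fl (−log10 q 18.1) and 1236 bp in cKO (13.1), and 98.8% of the fl peak was covered in both. No H3K27ac peak was listed in the Ptprc window in either genotype, and the nearest ones were 136 kb away. Ptprc thus carried H3K4me3 at its start in both genotypes without listed H3K27ac.

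Of the 9399 genes with H3K4me3 at a start in both genotypes, 48.9% also had H3K27ac at a start in both, 33.0% in cKO only, 0.532% in fl only and 17.6% in neither. Among the 5 marker genes with such H3K4me3 these numbers were 1 (Ly6e), 2 (Cd34, Ctnnal1), 0 and 2 (Fgd5, Ptprc). Peaks of both marks in the windows numbered 7 of 9 genes for H3K4me3 in fl (59.1% of all genes) and 5 in cKO (58.2%), and 4 for H3K27ac in fl (43.3%) and 4 in cKO (64.4%). The share of genes with H3K27ac in the window was thus higher in cKO over all genes, whereas the same number of marker genes, 4, had one in each genotype.

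**Figure D3:**
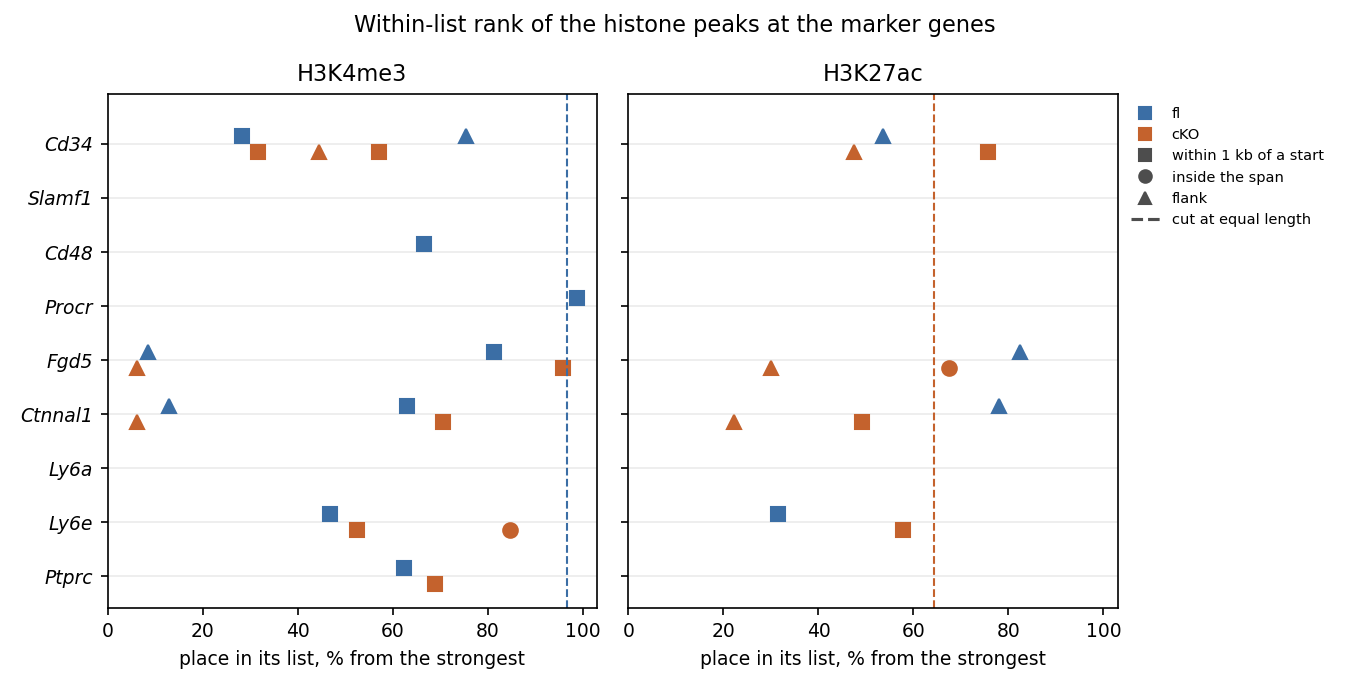
Place of each H3K4me3 and H3K27ac peak of the 9 genes in its own list, in percent from the strongest by −log10 q (horizontal axis), for fl (blue) and cKO (orange), with shapes for the place as labelled; the dashed line is where the longer list ends once held to the length of the shorter. The fl H3K4me3 peak of Procr (98.8%) lies beyond the line and that of Cd48 (66.7%) before it, and of the 3 H3K27ac peaks without an fl partner that of Ctnnal1 (49.2%) lies before the line while those of Fgd5 (67.4%) and Cd34 (75.7%) lie beyond it.

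The H3K9ac lists of HSC were short and gave few peaks at these genes, as over all genes. The fl list held 1 peak in the 9 windows, 172 bp inside Ptprc at fold 2.91 and −log10 q 1.64, so 1 of 9 genes against 8.76% of all genes. The cKO list held 0, against 13.3%. No H3K9ac peak lay at the start of any of the 9 genes.

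DEK peaks lay in the windows of 3 of the 9 genes, Slamf1, Ctnnal1 and Ly6e, and away from every start. Replicate 1 had a peak at 0 of 9 genes, against 6.62% of all genes, replicate 2 at 2 of 9, against 6.9%, and replicate 3 at 2 of 9, against 15.8%. At Slamf1 replicate 2 had a peak of 777 bp upstream, with its summit at position -8492 (−log10 q 2.34), and replicate 3 had one of 235 bp inside the gene, with its summit at position 23244 (5.76). At Ctnnal1 replicate 3 had a peak of 229 bp inside the gene (2.04), and in the Ly6e flank replicate 2 had a peak of 276 bp (1.96). None of the 4 DEK peaks was seen in a second DEK library, and none overlapped a histone peak. Without replicate 3, whose row names differ from its label, 2 DEK peaks were left, at Slamf1 and Ly6e.

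Promoter sequence was found for 7 of the 9 genes, all but Ly6a and Ly6e, as 300 bases from 250 before the start to 50 after it. The median over 17492 genes was 13 CpG. Fgd5 had 37, more than 93.1% of genes, Ctnnal1 24, Procr 13, Cd34 and Cd48 7 each, and Slamf1 4; Ptprc had 4 and 2 at its 2 annotated starts. Over all genes, H3K4me3 at a start in either genotype was found at 6.00% of promoters with 0 to 4 CpG, 25.4% of those with 5 to 9, 65.4% of those with 10 to 19 and 82.1% of those with 20 or more. Cd34, Cd48 and Ptprc thus carried H3K4me3 with few CpG, whereas Slamf1, with as few as Ptprc, did not.

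**Figure D4:**
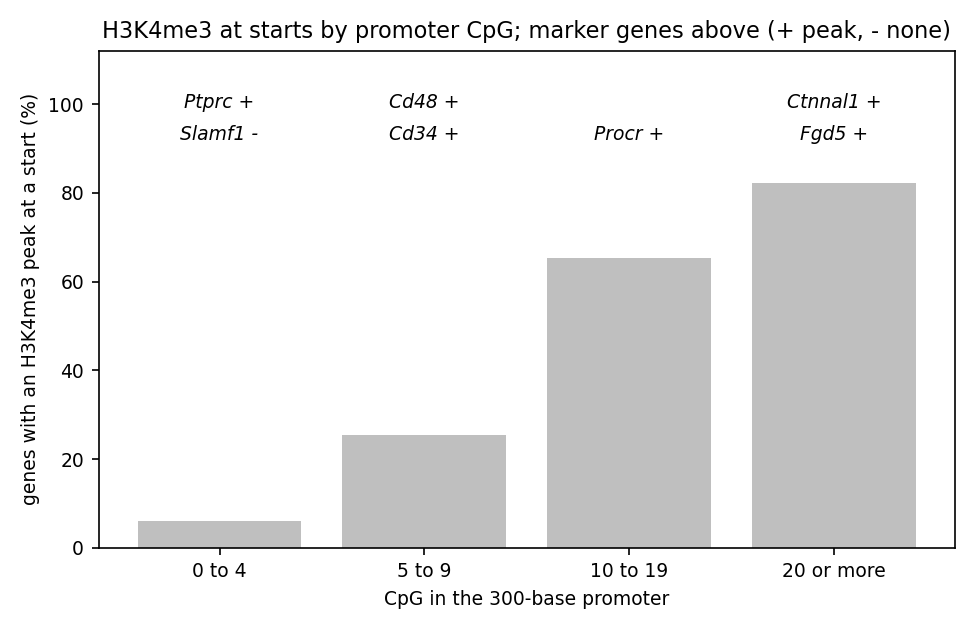
Percent of genes with an H3K4me3 peak within 1 kb of a start in either genotype (vertical axis), by the number of CpG in the 300-base promoter (horizontal axis); names above the bars are the 7 genes with promoter sequence, with + for an H3K4me3 peak and - for none. The bars rise from 6.00% to 82.1%, and Ptprc, Cd34 and Cd48 carry a peak in the 2 lowest classes while Slamf1 does not.

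Letters read by 5 families of blood transcription factors were searched on both strands of the 8 promoters of these 7 genes and of 21263 promoters in all, with overlaps between motifs allowed. The ETS core AGGAAG was found in 6 of 8, and in 34.4% of all promoters. The genes were Cd34, Slamf1, Cd48, Fgd5 and Ptprc, the last counted with both of its promoters. These overlap and share a match, at position -57 from the first start and -236 from the second. The GATA letters AGATAA were found in 1 of 8 (Ptprc, at position -25 from its second start) and in 9.65% of all, and the RUNX letters TGTGGT in 1 of 8 (Cd48, at position -76) and in 15.0%. The E-box CACGTG and the IRF element, a pair of GAAA runs with 2 bases between them, were in 0 of 8, beside 7.84% and 3.35% of all. Among the 5 runs printed above, AGGAAG lies on the opposite strand of Cd34 at position -142 and on the gene strand of Slamf1 at position -49. The promoters of Ctnnal1 and Procr held none of the 5 motifs. A match is a run of letters and not a measured binding site.

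Other genes of the same kinds were taken from 8 lists with 87 distinct genes. Over all genes, H3K4me3 lay at a start at 45.7% in fl and 44.6% in cKO, and H3K27ac at 22.6% and 43.9%. Of 24 other surface genes of stem and progenitor cells, 17 had H3K4me3 at a start in fl and 16 in cKO, and 7 and 8 had H3K27ac. The one with H3K27ac in cKO only was Kit, the receptor used in both sorts, at 54.0% of the way down its list. Il7r, the interleukin 7 receptor, had H3K4me3 in fl only, at 98.9% of the way down, and the Fc receptor gene Fcgr2b in cKO only, at 92.3%. These 2 peaks, like that of Procr, were among the weakest of their lists.

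Of 11 other reporter genes of stem cells, 6 had H3K4me3 at a start in fl and 7 in cKO, beside 45.7% and 44.6% of all genes. H3K27ac lay at a start of 1 in fl and 5 in cKO, beside 22.6% and 43.9%. The 4 with H3K27ac in cKO only were Hlf, Mecom, Gprc5c and Gfi1, at 39.4%, 50.6%, 60.5% and 76.1% of the way down. Hlf and Mecom encode transcription factors of stem cells, Gprc5c an orphan receptor and Gfi1 a transcriptional repressor. Hlf had H3K4me3 in cKO only as well, at 95.7% of the way down. H3K27ac at a start in cKO only, as at Ctnnal1, was thus seen at 4 of 11 reporter genes and at 1 of 24 surface genes, beside 21.7% of all genes, and the difference between the lists was not tested.

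Few other SLAM and Ly6 genes had either LSK mark at a start, where H3K4me3 lay at 45.7% of all genes in fl and 44.6% in cKO, and H3K27ac at 22.6% and 43.9%. Of 7 other SLAM genes, 1 (Ly9) had H3K4me3 at a start, in fl only at 96.1% of the way down, and 0 had H3K27ac. Of 16 other Ly6 genes, 1 (Ly6c2) had H3K4me3 at a start, in fl only at 89.0%, and 0 had H3K27ac. Cd48 and Ly6e were thus the strongest H3K4me3 starts of their families in the fl list. The 2 SLAM genes with the mark in fl, Cd48 and Ly9, had none listed in cKO. Over all genes this was so for 603 of the 10002 with the mark in fl. The Ly9 peak was in the weakest decile of the fl list, where 60.5% of peaks had no cKO partner.

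Markers of other cells were read in the same way, beside 45.7% (fl) and 44.6% (cKO) of all genes for H3K4me3. For H3K27ac the shares of all genes were 22.6% and 43.9%. Of 6 general blood genes 6 had H3K4me3 in fl and 5 in cKO, without Spi1, whose fl peak stood at 93.4%, and 2 and 4 had H3K27ac, with Vav1 and Ikzf1 in cKO only. Of 11 lineage surface genes 0 had H3K4me3 in either genotype, and 1 (Cd4) had H3K27ac, in cKO only. Of 6 endothelial genes 2 had H3K4me3 in fl and 1 in cKO, without Tie1, and 0 and 2 had H3K27ac, with Kdr and Egfl7 in cKO only. Of 6 stromal genes 0 had H3K4me3, and 0 and 3 had H3K27ac, with Cxcl12, Alpl and Sp7 in cKO only. H3K27ac in cKO only, as at Cd34 and Ctnnal1, was thus found at 2 of 6 endothelial, 3 of 6 stromal and 2 of 6 blood genes, beside 21.7% of all genes, and the part of endothelial or stromal cells in the peaks of Cd34 and Ctnnal1 was not tested. A DEK peak of any of the 3 libraries lay in the window at 8 of the 24 surface genes and 7 of the 11 reporter genes. The same held for 3 of the 9 marker genes (33.3%) and 23.8% of all genes. In the other lists it held for 3 of 11 lineage, 1 of 16 Ly6, 1 of 6 stromal and 1 of 6 blood genes. It held for 0 of 7 SLAM and 0 of 6 endothelial genes. Windows differ in length between genes, which was not adjusted for, and the difference between the lists was not tested.

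**Figure D5:**
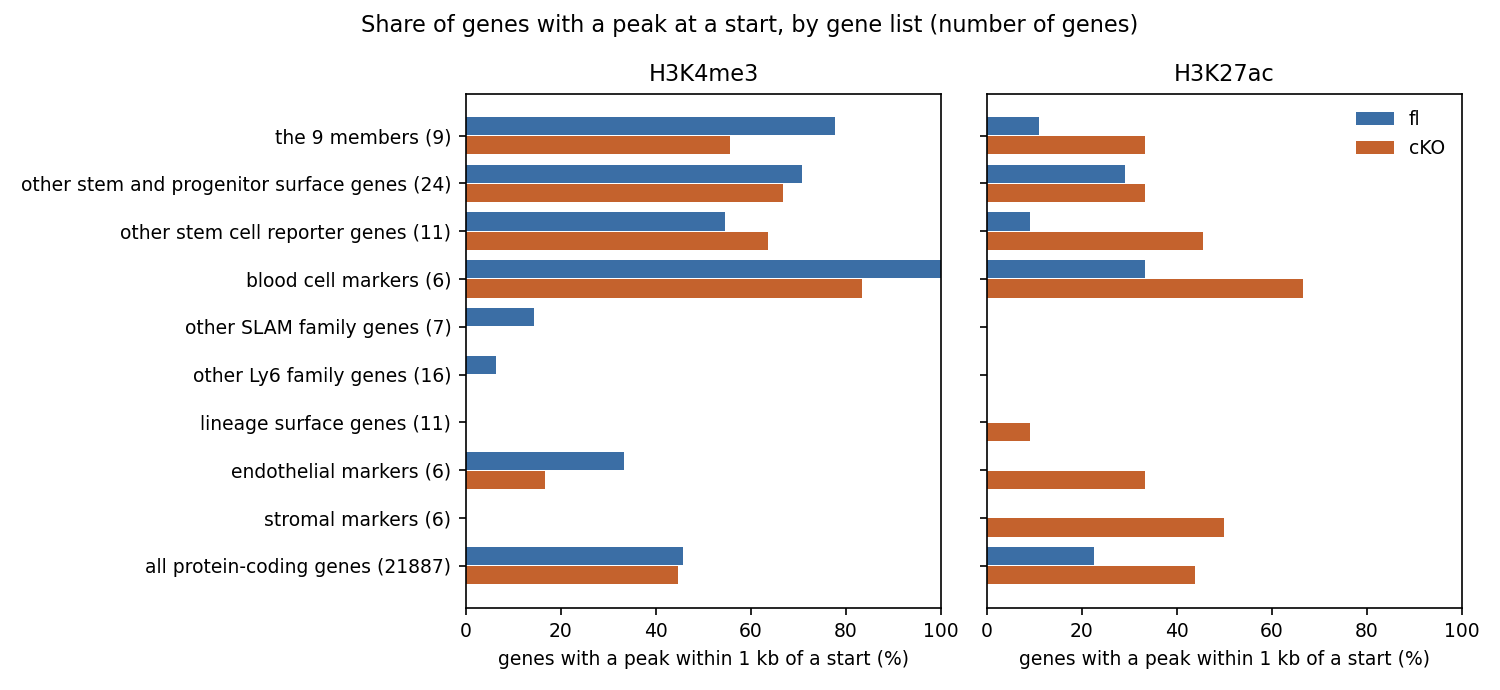
Percent of genes with an H3K4me3 (left) or H3K27ac (right) peak within 1 kb of a start, for the 9 genes, 8 lists of other genes and all protein-coding genes (number of genes in brackets), in fl (blue) and cKO (orange). For H3K27ac, bars are longer in cKO in 6 of 8 lists and absent in the other SLAM and Ly6 genes.

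The pattern of presence over the 9 lists was shared with other genes to very different extents. Cd34 and Fgd5 had 1 pattern, with both LSK marks in both genotypes in the window, together with 22.3% of all genes. Cd48 and Procr had another, with H3K4me3 in fl alone, which 127 other genes (0.580%) including each other also showed; of the listed genes these were Il7r, Ly6c2, Ly9 and Slamf7. Ctnnal1 shared its pattern with 574 genes, Cd47 and Itga2b among the listed ones, and Ly6e with 255, Cd44 among them. Ptprc shared its own with 44 genes and Slamf1, with DEK peaks in 2 libraries and nothing else, with 36. The likeness is of presence or absence in 9 libraries only.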

How the data were processed

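The members and the gene lists were chosen with earlier results of these data known. The tools named per the submitters' processing notes are Bowtie2, Picard and MACS2, and the build is mm10; no version or setting is given there. The authors deposited 1 peak list per library, not on pooled samples, with a score, a fold enrichment as a ratio over the caller's background, and a −log10 p-value and −log10 q-value per peak, which are the authors' own. The score and the −log10 p-value were used only to find irregular rows.

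In the DEK lists, 12 rows that broke the format of their list were left out, 0 of them near the 9 genes. The checks were set once these rows were known. Over the 9 lists together, 16 mitochondrial peaks were left out as well. Coordinates count from 1. Gene spans, starts and promoters came from RefSeq for GRCm38.p6 (the mm10 coordinates). Starts with strand were found for 17492 of 21887 genes; for the others both ends of the span stood in, so a 3′ end can count as a start. A place was called a start within 1 kb, the strongest peak by −log10 q has rank 1, and deciles are of that rank. Regions join peaks by an overlap of at least 1 bp.

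Named genes were the 9 members, neighbours with an end within 1 kb of a peak in a window, list genes with H3K27ac at a start in 1 genotype only, and listed genes of the same presence pattern, at most 5 per gene. List genes with H3K4me3 in 1 genotype only, and the genes nearest to a member without a peak, were named after their values were seen. One list gene is counted but not reported by name here. The counting of overlaps was tested on simulated peaks. Python 3.11.15, numpy 2.4.6, pandas 2.3.3 and matplotlib 3.10.9 were used. Windows of 10 and 50 kb, a −log10 q of at least 5, an overlap of 50%, lists of equal length, and leaving out each DEK replicate were tried as alternatives.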

Additional observations from a re-analysis of the deposited data

How the results depend on the processing

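Of 45 values recomputed, 37 stayed within 1.5 times the count reported and 8 moved. Only counts were compared, so a count can stay the same while its regions change. With a −log10 q of at least 5 the fl-only H3K4me3 regions stayed at 2, but Fgd5 took the place of Procr. With a window of 10 kb the shared H3K27ac regions fell to 2, and with one of 50 kb the cKO H3K9ac peaks became 1, near Ptprc. With a −log10 q of at least 5 the fl H3K9ac peaks became 0 and the DEK peaks 1, that of Slamf1 in replicate 3. With lists of equal length the cKO-only H3K27ac regions became 1 (Ctnnal1) and the fl-only H3K4me3 regions 1 (Cd48), because the weakest peaks of the longer list are dropped. Leaving out each DEK replicate gave 2 to 4 DEK peaks: 2 without replicate 2 and 2 without replicate 3. No paired analysis was possible because each mark has 1 library per genotype and no result comes from a test. Unknown depth limits every absence named: a place without a listed peak may hold signal under the caller's threshold.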

Other observations

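The SLAM genes lie within 1032 kb of chromosome 1, with 9 family genes from Cd244a to Slamf8. Within this stretch the fl H3K4me3 list held 11 peaks and the cKO list 9. Of the 9 SLAM genes 2 had one at a start in fl and 0 in cKO, beside 45.7% and 44.6% of all genes. Most of the other peaks lay at unrelated genes between them, such as Dcaf8, Copa with Ncstn, Tagln2 and Pigm. The fl list also held a peak of 370 bp upstream of Cd48, outside its 20 kb window, at 98.3% of the way down, where no other list had a peak. H3K27ac peaks there numbered 5 in fl and 10 in cKO, none within 1 kb of an annotated end of a SLAM gene.

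The Ly6 genes lie within 883 kb of chromosome 15, with 18 family genes. H3K4me3 gave 4 peaks in each genotype and H3K27ac 4 in each, and beside Ly6e and Ly6c2 the H3K4me3 peaks lay at Them6 and 9030619P08Rik. Them6 and Ly6e carried H3K27ac in both genotypes. The other H3K27ac peaks, also in both, lay at no listed gene end. From position 75168301 in fl, 1 stood 9.71% of the way down the fl list and 51.3% down the cKO list. The other, from position 75338874 in fl, stood 6.45% and 69.4% down and overlapped a DEK replicate 3 peak. DEK replicates 2 and 3 overlapped at 1 place in this stretch, with peaks of 349 and 1452 bp and −log10 q of 4.13 and 9.63, 87.5 kb beyond Ly6a. That place lay at no listed gene end, and no histone list had a peak there.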
